A study of Homo sapiens with 14 samples.

Results

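RTL8A, RTL8B, RTL8C, RTL5, RTL6 and PEG10 are 6 genes derived from long terminal repeat retrotransposons, out of 63140 genes in the deposited count table. RTL8B was chosen because of its large fall with miR-34a-WT and its partial recovery with miR-34a-RS, so its values are given as a description without a test. The other 5 were chosen as relatives of RTL8B, and their values come from a fit over all 18321 genes with enough reads, a filter that all 6 passed. The cells were HEK293T, an established line from human embryonic kidney that also expresses the large T antigen of SV40, and polyadenylated RNA was sequenced in bulk 24 h after transfection. The control group (n = 5) received the AllStars negative control siRNA, a commercial duplex. The miR-34a-WT group (n = 5) received a duplex of the unmodified microRNA. The miR-34a-RS group (n = 4, replicates 1, 2, 3 and 5) received a duplex whose guide carries rSpacer, an abasic residue with a backbone and no base, at positions 13 and 14 counted from the 5′ end. The study asked how pairing of the guide beyond its seed contributes to targeting. All 3 groups share the cell line and the transfection of a short duplex, and no untransfected library was analysed here.

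The RTL genes, PEG10 and LDOC1 descend from the gag and pol genes of gypsy-like retrotransposons that mammals retained as single-copy or few-copy genes. PEG10, a paternally expressed imprinted gene, keeps gag-like and pol-like reading frames joined by a ribosomal frameshift and is needed for placental development in mice. The RTL8 genes on the X chromosome encode small proteins that resemble part of the PEG10 gag domain, and ubiquilin 2 is known to bind or regulate both PEG10 and RTL8 proteins. A microRNA guide bound to an Argonaute protein finds its targets mainly through pairing of the seed with the 3′ UTR, and pairing of later guide bases can add to it.

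The mature miR-34a sequence is shown first because every match described here was searched from it. It matches chr1:9151735-9151756 on the minus strand in the RefSeq table of GRCh38.p14. Capitals mark the seed, guide bases 2 to 8, in the first line and the bases at positions 13 and 14, absent from miR-34a-RS, in the second.

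miR-34a guide, seed: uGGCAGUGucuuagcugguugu

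miR-34a guide, positions 13 and 14: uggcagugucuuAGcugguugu

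Seed matches of 4 kinds were searched on the transcript strand of the GENCODE 29 transcripts of GRCh38: the 8mer CACTGCCA, the 7mer-m8 CACTGCC, the 7mer-A1 ACTGCCA and the 6mer ACTGCC. The shorter ones lie within the 8mer, and each place was counted once as its longest class. The RTL8 genes carry their matches in the first part of the 3′ UTR, and the following 30-base windows show them in capitals at the 3′ end. In the RTL8C window aligned with the RTL8B 8mer, capitals mark the 8 aligned bases, which are not a seed match.

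RTL8B 8mer, chrX:135021698-135021727, minus strand: gctgcccacagacctgcgctgcCACTGCCA

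RTL8A 8mer, chrX:135051350-135051379, minus strand: tctgcccacagacctacgctacCACTGCCA

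RTL8C, aligned with the RTL8B 8mer, chrX:135033114-135033143, plus strand: tctgcccacagacctgcgctgcCACAGCCA

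RTL8C 7mer-m8, chrX:135033034-135033063, plus strand: gttacacactggacagaccaccCACTGCCg

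RTL8C 7mer-A1, chrX:135033070-135033099, plus strand: ccaagccctctcctccccaccagACTGCCA

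RTL8A 7mer-A1, chrX:135051394-135051423, minus strand: ccaacccacctccactcctccagACTGCCA

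RTL6 8mer, chr22:44492841-44492870, minus strand: cggaaatatttgtatccccttaCACTGCCA

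The 8mers of RTL8B and RTL8A sit at the same aligned place, 413 and 410 bases after the stop codon. Counting positions from the 5′ end of the window and writing the RTL8B base first, RTL8A differs by G1T, G16A and G21A, all outside the seed match. RTL8C differs there by G1T and T26A, and the second of these breaks the 8mer. RTL8C has instead a 7mer-m8 331 bases after the stop codon. The aligned RTL8A stretch differs from that RTL8C window by C7T and T26A, writing the RTL8C base first, and so lacks the match. Both RTL8C and RTL8A also carry a 7mer-A1, at 367 and 366 bases after the stop codon, and the aligned RTL8B stretch differs from the RTL8A window by G27T within it. RTL8B therefore has 1 match, an 8mer, RTL8A an 8mer with a 7mer-A1, and RTL8C a 7mer-m8 with a 7mer-A1. Of the 13611 tested genes with an annotated 3′ UTR, 6.02% hold an 8mer, 17.7% hold an 8mer or 7mer-m8, and 35.1% hold any of the 4 matches.

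None of the 8mer or 7mer-m8 matches in the 3′ UTRs of these genes had the full partner of guide bases 13 to 16, AGCT, within 15 bases upstream, which 1.64% of the 13611 genes have at such a match. Shorter runs of Watson-Crick pairing that take in guide position 13 or 14 were present at both 8mers of the RTL8 genes. The RTL8A 8mer has a run of 4 pairs, guide positions 12 to 15, starting 1 base upstream of the match, and the RTL8B 8mer has a run of 3 pairs, positions 13 to 15, starting 2 bases upstream. Runs of at least 3 such pairs occurred at 66.9% of the 899 8mers in tested 3′ UTRs and runs of at least 4 at 26.4%, so a run of either length is common. At the RTL8C 7mer-m8, the RTL6 8mer and the RTL8A 7mer-A1 no run of at least 3 pairs took in position 13 or 14. The RTL8C 7mer-A1 had a run of 3 pairs, positions 14 to 16, starting 16 bases upstream. In the other 3′ UTRs, runs of at least 3 such pairs lay at the RTL6 7mer-A1 and 6mers and at the RTL5 6mer. PEG10 had them at its 6mer and at 1 of its 7mer-A1 matches. Such runs were thus not particular to RTL8A and RTL8B. These matches describe letters and are not measured binding sites.

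**Figure D1:**
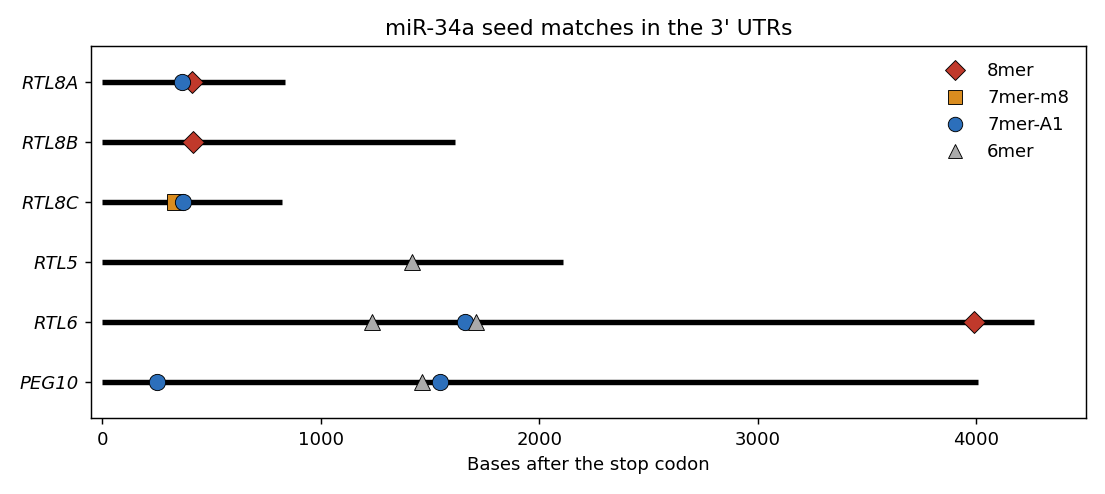
Seed matches to miR-34a in the 3′ UTR of each of the 6 genes, with the distance from the stop codon in bases on the horizontal axis. Marker shape and colour give the class of match and the line gives the length of the 3′ UTR. The matches of RTL8A, RTL8B and RTL8C cluster between 331 and 413 bases after the stop codon, and the RTL6 8mer lies at 3989 of 4265 bases.

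The libraries held 22.24 to 36.26 M counted reads. All 8 markers of HEK293T and embryonic kidney cells were above 1 CPM on average (CPM is the read count scaled to library size with TMM factors), with a summed level of 468 to 538 CPM across libraries. Of the placental trophoblast markers, where PEG10 is known to act, only GATA3 exceeded 1 CPM among 5, and PSG1 had no count in any of the 14 libraries. Their summed level was 7.64 to 9.42 CPM in control, 6.67 to 7.62 CPM in miR-34a-WT and 6.47 to 8.14 CPM in miR-34a-RS. Blood cell markers exceeded 1 CPM in 1 of 6, with PTPRC at 0 in 11 libraries and sums of 2.58 to 3.14, 2.48 to 3.56 and 3.45 to 3.72 CPM in the same order. The neuronal sum, from 1 of 4 markers above 1 CPM, was 4.61 to 5.89, 2.36 to 4.48 and 3.24 to 3.99 CPM. Fibroblast markers exceeded 1 CPM in 2 of 6, with COL1A2 at 0 in all 14 libraries and overlapping sums of 24.8 to 34.1 CPM. Trophoblast and neuronal sums were thus lower in every miR-34a-WT library than in any control, and neuronal sums were lower and blood sums higher in every miR-34a-RS library. The part of these markers in the results was not tested. In bulk RNA, fewer cells that express a gene cannot be told apart from less of its RNA per cell.

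RTL8B (ENSG00000212747, chrX:135020504-135022529, minus strand, GRCh38) fell the most of the 6 genes. Its levels in CPM were 37.3, 38.7, 43.0, 39.1 and 41.5 in control replicates 1 to 5. They were 8.83, 8.06, 7.50, 7.55 and 7.78 in miR-34a-WT replicates 1 to 5, and 12.1, 11.99, 11.5 and 12.9 in miR-34a-RS replicates 1, 2, 3 and 5. The 3 groups did not overlap, with every miR-34a-RS library above every miR-34a-WT library and below every control. The level of 39.9 ± 2.27 CPM (SD, n = 5) in control compares with 7.94 ± 0.540 (n = 5) and 12.1 ± 0.569 (n = 4), which is 5.03-fold lower with miR-34a-WT and 3.29-fold lower with miR-34a-RS. On the log2 scale the differences were -2.33 (SE 0.06) and -1.72 (SE 0.06), and miR-34a-RS lay above miR-34a-WT by 0.61 (SE 0.07). These are the values that chose the gene. Among 11259 genes with a mean of at least 5 CPM, RTL8B ranked 3 from the lowest with miR-34a-WT, 6 with miR-34a-RS and 11 from the highest in the difference of the duplexes.

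**Figure D2:**
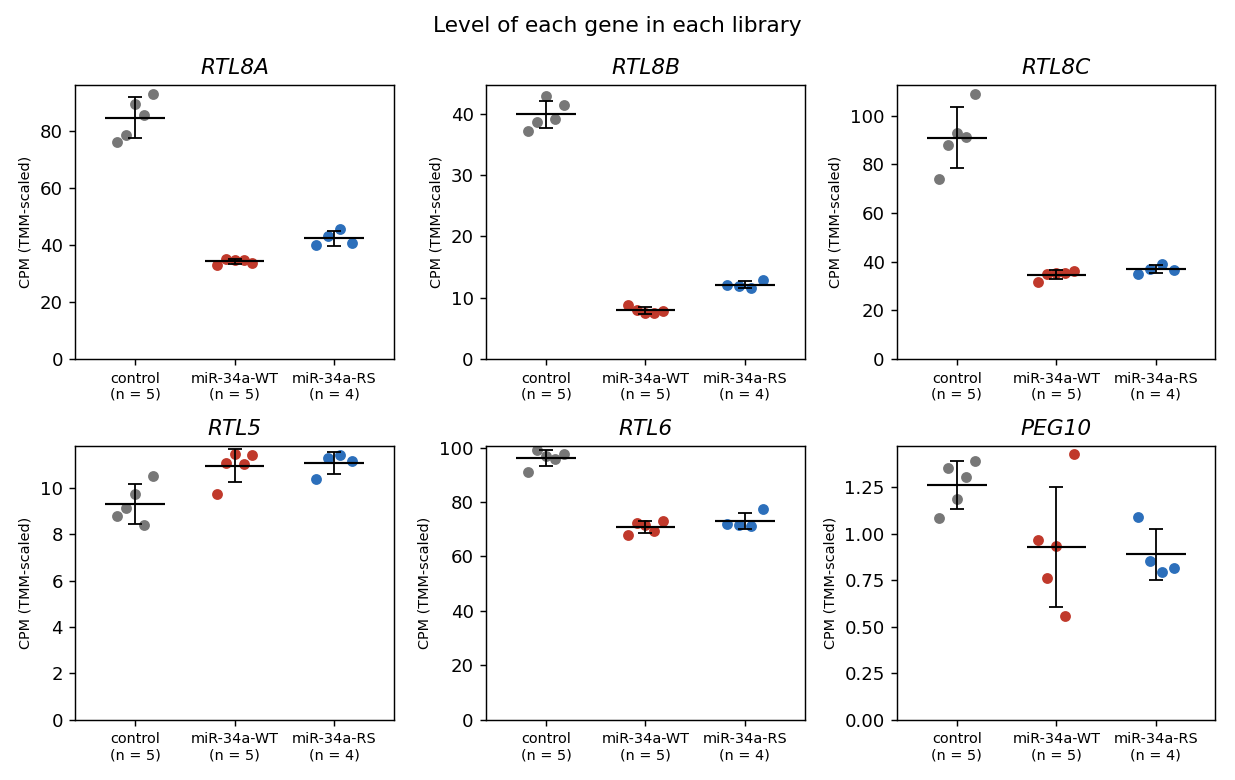
CPM of each gene in every library, with 1 point per library, the group mean as a line and the SD as an error bar, on linear axes that start at 0. RTL8A, RTL8B, RTL8C and RTL6 have no control library within the range of either miR-34a group, whereas the groups of RTL5 and PEG10 overlap.

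The other 5 genes were called, at an adjusted p under 0.05 from edgeR's quasi-likelihood test (Benjamini-Hochberg over 18321 genes), in the same numbers against control in both miR-34a groups. RTL8A, RTL8C and RTL6 fell, RTL5 rose and PEG10 did not pass. With miR-34a-WT 4 of 5 were called, beside 40.2% of all tested genes: 3 fell, beside 21.3% called lower, and 1 rose, beside 18.9% called higher. In the miR-34a-RS group 4 of 5 were again called, beside 34.6% of all tested genes, and the split was again 3 and 1, beside 18.4% and 16.2%. Between the duplexes 1 of 5 was called, beside 1.56% of all tested genes: RTL8A was higher with miR-34a-RS, beside 1.03%, and none was lower, beside 0.535%. These shares come from the fit without pairing. With the replicate number as a block, 1254 of the tested genes in place of 286 were called between the duplexes. RTL8A was again the 1 of 5, there beside a larger share of all tested genes. That count of 286 was 730 without miR-34a-RS replicate 1, 143, 142 and 176 without miR-34a-RS replicates 2, 3 and 5, and 175 and 151 without miR-34a-WT replicates 1 and 3. Both miR-34a groups were compared with the same control libraries, so these comparisons share their controls. Over all tested genes the median log2 difference was -0.02 for miR-34a-WT and -0.01 for miR-34a-RS.

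RTL8A (ENSG00000203950, chrX:135050932-135052196, minus strand) encodes the closest paralog of RTL8B by coding sequence. It measured 76.3, 78.7, 89.7, 85.7 and 93.3 CPM in control, 32.9, 35.1, 34.9, 34.9 and 33.6 CPM in miR-34a-WT, and 40.0, 43.2, 45.7 and 40.9 CPM in miR-34a-RS, in replicate order. As for RTL8B, the 3 groups did not overlap and miR-34a-RS lay between the others. The mean fell from 84.7 ± 7.20 CPM (SD, n = 5) to 34.3 ± 0.946 CPM (n = 5) with miR-34a-WT, a log2 difference of -1.30 (SE 0.06, adjusted p = 1.52e-15 by edgeR's quasi-likelihood test). With miR-34a-RS it fell to 42.5 ± 2.57 CPM (n = 4), a log2 difference of -0.996 (SE 0.06, adjusted p = 8.03e-13). The direct comparison of the 2 duplexes gave 0.31 higher with miR-34a-RS (SE 0.06, 95% interval 0.19 to 0.43, adjusted p = 0.00443 by edgeR's quasi-likelihood test). That fit had no pairing. With the replicate block the difference was 0.31 (SE 0.05, adjusted p = 6.45e-05 by the same test).

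RTL8C (ENSG00000134590, chrX:135032366-135033546, plus strand), the third RTL8 paralog, fell with both duplexes to similar levels. Its levels were 74.2, 87.9, 93.0, 91.2 and 108.8 CPM in control, 31.7, 35.1, 35.2, 35.3 and 36.2 CPM in miR-34a-WT, and 35.0, 37.0, 39.2 and 36.7 CPM in miR-34a-RS. Every control library lay above both miR-34a groups, while the miR-34a-WT and miR-34a-RS libraries overlapped. The log2 difference from control was -1.39 (SE 0.07, adjusted p = 4.65e-14) for miR-34a-WT and -1.30 (SE 0.07, adjusted p = 7.79e-13) for miR-34a-RS by edgeR's quasi-likelihood test. Between the duplexes it was 0.09 (SE 0.07, 95% interval -0.06 to 0.25, adjusted p = 0.705), so a difference of up to 0.25 on the log2 scale is within its interval. That fit had no pairing. With the replicate block the difference was 0.10 (SE 0.05, adjusted p = 0.337 by the same test).

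**Figure D3:**
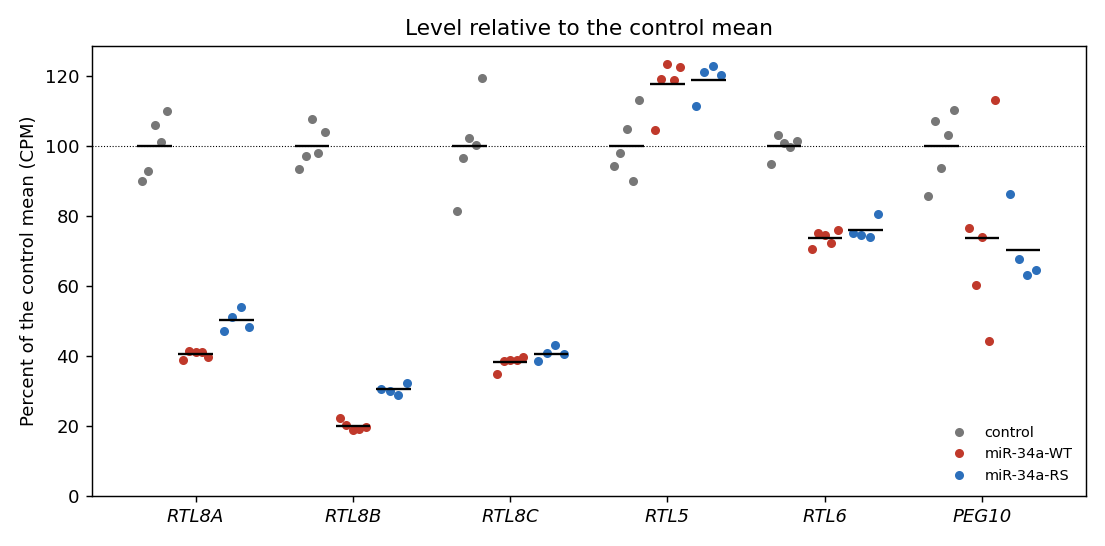
Level of each gene as a percentage of the control mean, with 1 point per library, a short line at the group mean and a dotted line at the control mean. RTL8B stood at 19.9% for miR-34a-WT and 30.4% for miR-34a-RS, RTL8A at 40.5% and 50.1%, and RTL8C at 38.1% and 40.6%.

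The ratio of RTL8A to RTL8C within each library sets the 2 genes side by side. This pair was picked after its values had been seen, so the ratio is a description without a test. The log2 ratio ranged from -0.22 to 0.04 in control (mean -0.10, n = 5), from -0.11 to 0.05 in miR-34a-WT (mean -0.02, n = 5) and from 0.16 to 0.22 in miR-34a-RS (mean 0.20, n = 4). The miR-34a-RS libraries lay above all libraries of the other groups, which overlapped each other. The means differed by 0.21 between the duplexes. Whether the change between the duplexes differs between RTL8A and RTL8C was not tested on independent data.

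The 3 paralogs are alike, so short reads can fit more than 1 of them. RTL8B shares 96.49% of its coding bases with RTL8A and 94.44% with RTL8C, and 88.47% and 90.65% of the aligned 3′ UTR bases. Of all 50-base stretches, 89.96% in RTL8A, 90.69% in RTL8B and 91.61% in RTL8C occur in no other RTL8 transcript, and at 100 bases the shares are 99.3%, 99.58% and 100%. How reads that fit several genes were counted is not given in the sources used here, so part of each paralog's count may be dropped or may belong to another, and RTL8A and RTL8C values are not fully independent of those that chose RTL8B. Counting the 3 as 1 feature gave 216 ± 21.0 CPM in control (SD, n = 5), 76.9 ± 1.93 in miR-34a-WT (n = 5) and 91.5 ± 3.89 in miR-34a-RS (n = 4). Its log2 differences, described without a test because RTL8B is part of it, were -1.49 (SE 0.05), -1.24 (SE 0.06) and, between the duplexes, 0.25 (SE 0.06).

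Within this sum RTL8B made up 18.6 ± 1.07% of the control counts (SD, n = 5), 10.3 ± 0.963% with miR-34a-WT (n = 5) and 13.3 ± 1.03% with miR-34a-RS (n = 4). RTL8A rose as a share, from 39.3 ± 1.01% in control to 44.6 ± 0.687% and 46.3 ± 0.992%, although its own level fell. The share of RTL8C was 42.1 ± 1.91%, 45.1 ± 1.245% and 40.4 ± 0.251%. These shares are a description, since the fall of RTL8B alone moves all 3.

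**Figure D4:**
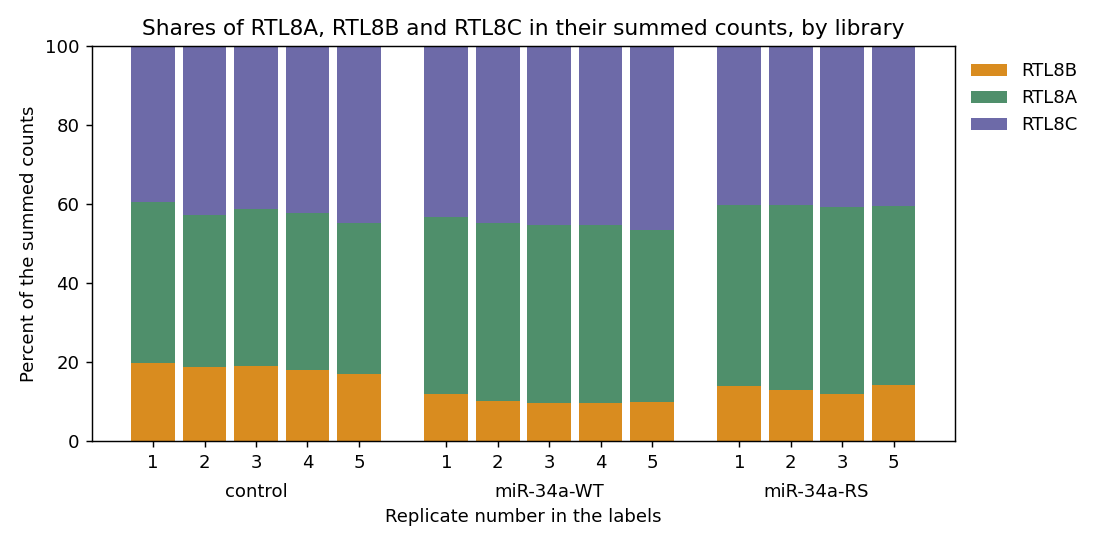
Share of RTL8A, RTL8B and RTL8C in their summed counts, in percent, with 1 stacked bar per library. RTL8B takes 17.0% to 19.9% in control libraries, 9.67% to 12.01% with miR-34a-WT and 11.9% to 14.2% with miR-34a-RS.

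RTL6 (ENSG00000188636, chr22:44492572-44498298, minus strand), a gag-derived gene with a long 3′ UTR, fell less. Control libraries measured 91.2, 99.1, 97.0, 95.7 and 97.5 CPM, miR-34a-WT libraries 67.8, 72.2, 71.5, 69.4 and 73.0 CPM, and miR-34a-RS libraries 72.1, 71.5, 71.1 and 77.4 CPM. All controls were above all libraries of both miR-34a groups, which overlapped each other. The log2 difference was -0.44 (SE 0.04, adjusted p = 4.78e-09) for miR-34a-WT and -0.40 (SE 0.04, adjusted p = 1.11e-07) for miR-34a-RS by edgeR's quasi-likelihood test. Between the duplexes it was 0.04 (95% interval -0.05 to 0.14, adjusted p = 0.767). Besides the 8mer shown above, the RTL6 3′ UTR holds a 7mer-A1 and 2 6mers, 1 of them 1236 bases after the stop codon with AGCT a few bases upstream of the match.

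RTL5 (ENSG00000242732, chrX:72127110-72131901, minus strand), another gag-derived gene of the X chromosome, moved the other way. It measured 8.76, 9.10, 9.74, 8.37 and 10.5 CPM in control, 9.72, 11.1, 11.5, 11.04 and 11.4 CPM in miR-34a-WT, and 10.4, 11.3, 11.4 and 11.2 CPM in miR-34a-RS. Control replicate 5, the highest control, lay above replicate 1 of both miR-34a groups, so the groups overlapped. The rise was 0.24 on the log2 scale (SE 0.07, adjusted p = 0.00773) for miR-34a-WT and 0.25 (SE 0.07, adjusted p = 0.00870) for miR-34a-RS by edgeR's quasi-likelihood test. The duplexes differed by 0.01 (95% interval -0.14 to 0.16, adjusted p = 0.972). Its 3′ UTR has 1 match, a 6mer. The gene span of RTL5 overlaps that of NHSL2 on the opposite strand. Because the kit leaves strand unmarked, reads of the 2 genes cannot be told apart wherever their exons overlap. Whether their exons overlap was not measured. NHSL2 measured 5.88 ± 0.788 CPM in the controls (SD, n = 5) and its log2 difference with miR-34a-WT was -0.04 (adjusted p = 0.765 by edgeR's quasi-likelihood test).

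PEG10 (ENSG00000242265, chr7:94656325-94669695, plus strand) was near the limit of measurement, with 18 to 47 reads per library. Its levels were 1.08, 1.35, 1.18, 1.303 and 1.39 CPM in control, 0.968, 0.760, 0.933, 0.560 and 1.43 CPM in miR-34a-WT, and 1.09, 0.854, 0.795 and 0.816 CPM in miR-34a-RS. The miR-34a-WT libraries held both the lowest and the highest of the 14 values. The log2 difference from control was -0.44 (SE 0.19, adjusted p = 0.0677) for miR-34a-WT and -0.50 (SE 0.20, adjusted p = 0.0510) for miR-34a-RS by edgeR's quasi-likelihood test. The first was -0.66 (adjusted p = 0.00538) without miR-34a-WT replicate 5 and -0.28 (adjusted p = 0.239) without miR-34a-WT replicate 4. The second was -0.55 (adjusted p = 0.0413) without control replicate 1 and -0.60 (adjusted p = 0.0324) without miR-34a-RS replicate 1, so 1 library decides each call. Between the duplexes the difference was -0.07 (95% interval -0.50 to 0.36, adjusted p = 0.944). The gene span of PEG10 overlaps that of SGCE, an imprinted gene on the opposite strand at 12.4 ± 0.797 CPM in control (SD, n = 5). Reads from any shared exon bases cannot be assigned without strand. Whether such bases exist was not measured.

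**Figure D5:**
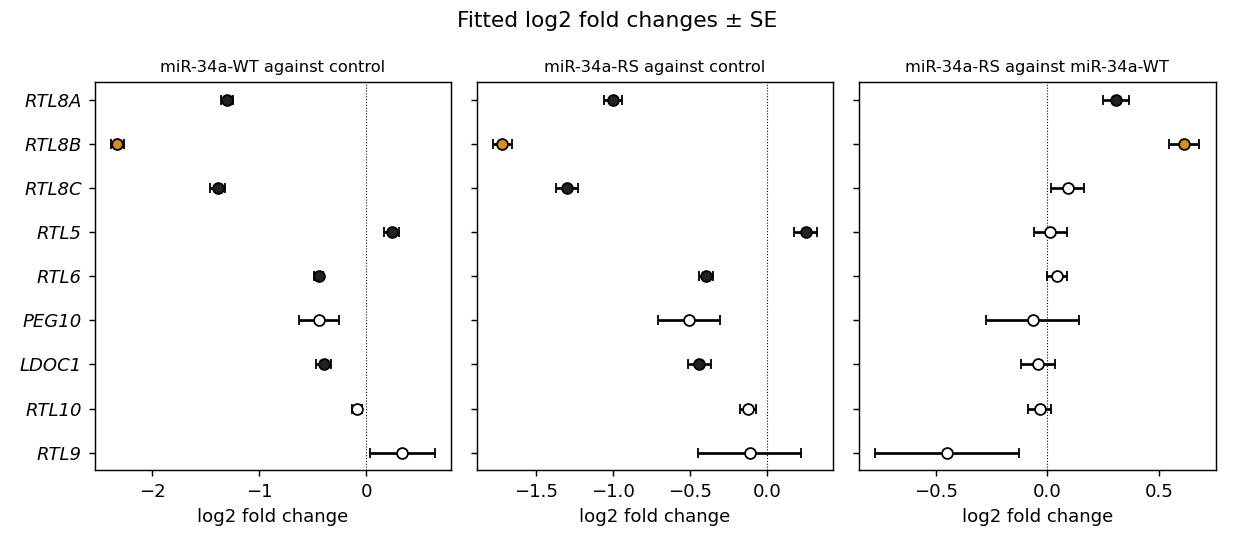
Log2 differences of the 6 genes and of LDOC1, RTL10 and RTL9 in the 3 comparisons, with points at the estimate, bars for its SE and a separate horizontal scale in each panel. Black points passed an adjusted p under 0.05, white points did not, and RTL8B is orange because it was chosen from these values and has no test. RTL8A is the 1 black point in the comparison of the duplexes, at 0.31.

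Compared between genes per kilobase of transcript, the control levels in CPM per kilobase were 77.1 ± 10.5 for RTL8C, 68.1 ± 5.78 for RTL8A, 19.7 ± 1.12 for RTL8B, 17.5 ± 0.550 for RTL6, 2.27 ± 0.206 for RTL5 and 0.198 ± 0.0201 for PEG10 (SD, n = 5 each). RTL8C and RTL8A, the top of this order, had overlapping libraries, while RTL8B and RTL6 did not overlap. With miR-34a-WT the order of those last 2 turned, at 3.92 ± 0.267 for RTL8B and 12.9 ± 0.393 for RTL6 (n = 5). With miR-34a-RS they stood at 5.99 ± 0.281 and 13.3 ± 0.534 (n = 4). RTL8A and RTL8C measured 27.6 ± 0.760 and 29.4 ± 1.44 with miR-34a-WT and 34.1 ± 2.07 and 31.3 ± 1.45 with miR-34a-RS, on the same scale.

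Tested genes with a 3′ UTR gave the background for these falls by class of match. Of 820 genes with an 8mer, 52.2% were called lower for miR-34a-WT and 50.1% for miR-34a-RS, with median log2 differences of -0.22 and -0.20. Of 1592 genes with a 7mer-m8 and no 8mer, 42% and 36.7% were lower. Of 8831 genes with none of the 4 matches, 17.3% and 14% were lower. RTL8A, with an 8mer, and RTL8C, whose longest match is a 7mer-m8, lay at 45 and 29 from the lowest of 11259 genes with miR-34a-WT, and RTL6, with an 8mer, at 863. The log2 differences of RTL8A (-1.30, SE 0.06) and RTL8C (-1.39, SE 0.07) lay close together, so their ranks do not separate these 2 genes. RTL5, whose only 3′ UTR match is a 6mer, rose by 0.24. PEG10, with 7mer-A1 and 6mer matches in its 3′ UTR, did not pass. Whether the class of match bears on the size of the fall was not tested.

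Of the other 6 RTL genes, RTL10 and LDOC1 were well expressed and 4 were below 1 CPM. RTL1 and RTL3 had no count in any library, which allows up to 0.135 CPM in the shallowest one, and RTL4 had at most 1 count. Of the 6 genes 3 were tested, and in both miR-34a groups 1 fell, none rose and 2 did not pass, beside 21.3% of all tested genes called lower for miR-34a-WT and 18.4% for miR-34a-RS. LDOC1, a gag-derived gene of the X chromosome, fell from a control level of 36.5 ± 3.02 CPM (SD, n = 5) to 27.7 ± 2.48 with miR-34a-WT (n = 5), a log2 difference of -0.40 (SE 0.07, adjusted p = 7.78e-05), and to 26.9 ± 3.27 with miR-34a-RS (n = 4), a difference of -0.44 (adjusted p = 6.25e-05 by edgeR's quasi-likelihood test). Its 3′ UTR has none of the 4 matches. RTL10 differed by -0.09 and -0.12 and RTL9, with at most 17 reads per library, by 0.34 and -0.11, and neither passed. None of the 3 passed between the duplexes.

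Among 9 tested genes of the PNMA family and ARC, which descend from other gag genes, 1 rose and 3 fell with miR-34a-WT, 2 rose and 2 fell with miR-34a-RS, and none was called between the duplexes. All tested genes were called higher in 18.9% and lower in 21.3% with miR-34a-WT, in 16.2% and 18.4% with miR-34a-RS, and in 1.56% either way between the duplexes. MOAP1, a regulator of apoptosis with an 8mer in its 3′ UTR, fell by 0.60 and 0.54 on the log2 scale with the 2 duplexes, whereas ZCCHC12 rose by 0.24 and 0.38. ZCCHC18, with none of the 4 matches, fell by 0.37 and 0.42. CCDC8 was at 0.13, which did not pass, and 0.24, which did. The 2 duplexes gave this list a median of -0.08 and -0.0027 in turn, beside -0.02 and -0.01 for all genes. Of 27 tested genes from other transposable elements, 6 rose and 6 fell with miR-34a-WT and 4 rose and 7 fell with miR-34a-RS, in all 12 and 11 called, near the 40.2% and 34.6% of all tested genes called. The transposase-derived PGBD5, with a 7mer-m8, fell by 0.71 and 0.67 on the log2 scale. TIGD1, with none of the 4 matches, fell by 0.52 and 0.45. POGZ, with an 8mer as in MOAP1, fell by 0.23 and 0.23, while KRBA2 rose by 0.28 and 0.49. Between the duplexes 1 of the 27 was higher with miR-34a-RS, NYNRIN, at 0.29 (adjusted p = 0.0152 by edgeR's quasi-likelihood test), a gene named after its value was seen. The medians of these 27 genes were -0.04 and -0.01.

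The ubiquilins, which bind or turn over PEG10 and RTL8 proteins, had 3 tested members, of which 1 rose and 1 fell with miR-34a-WT and 1 rose and none fell with miR-34a-RS, beside 40.2% and 34.6% of all tested genes called in either direction. UBQLN2, the one best known for it, was at 0.01 and -0.03 on the log2 scale and did not pass, and UBQLN1 rose by 0.19 and 0.23. UBQLN4 was at -0.12 with both duplexes, with adjusted p = 0.0333 and 0.0501 by edgeR's quasi-likelihood test. Of 27 tested imprinted genes, the class to which PEG10 belongs, 1 rose and 7 fell in each miR-34a group, with a median of -0.10 in both, and none was called between the duplexes. Of all tested genes 21.3% and 18.4% were called lower in the 2 groups and 18.9% and 16.2% higher. PLAGL1 fell by 0.38 and 0.49, GRB10 by 0.32 and 0.27 and GNAS by 0.19 and 0.16 on the log2 scale, while UBE3A rose by 0.28 and 0.22. All these lists were counted without a test of the list.

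The neighbours of the RTL8 genes on the X chromosome fell less than the RTL8 genes. SMIM10, 28031 bases from RTL8B, fell by 0.30 with each duplex (SE 0.06 in both, adjusted p = 1.93e-04 and 4.18e-04 by edgeR's quasi-likelihood test). SMIM10L2B, 42791 bases beyond RTL8A, fell by 0.35 with miR-34a-WT (adjusted p = 0.0119) and was at -0.12 with miR-34a-RS (adjusted p = 0.446). SHISAL1, the nearest tested gene on 1 side of RTL6, fell by 0.42 and 0.39, and PRR5 on the other side did not pass in either comparison. Next to RTL5, GCNA and PIN4 did not pass. CASD1, next to PEG10, rose by 0.24 and 0.19, and PPP1R9A on its other side was at -0.10, which did not pass, and -0.16, which did (adjusted p = 0.0458).

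The 5 genes whose pattern over the 14 libraries was closest to that of RTL8B were found by Euclidean distance between log2 CPM values centred on the control mean, among 11258 genes. They were TPD52 at 0.88, PPP1R11 at 1.01, NECTIN1 at 1.22, SLC35G2 at 1.36 and MPV17L2 at 1.37. TPD52, with an 8mer, differed from control by -2.05 for miR-34a-WT and -1.53 for miR-34a-RS, and miR-34a-RS was above miR-34a-WT by 0.52, close to the 0.61 of RTL8B. PPP1R11 and SLC35G2 differed between the duplexes by 0.06 and -0.01 on the log2 scale, NECTIN1 by 0.20 and MPV17L2 by 0.27. An 8mer was not particular to TPD52, which also has a 7mer-A1 and a 6mer. PPP1R11 has 2 8mers, 1 of them with AGCT within 15 bases upstream, and a 6mer. NECTIN1 has 1 8mer, 5 7mer-m8 matches and 1 7mer-A1. The only match of MPV17L2 is an 8mer, and that of SLC35G2 is a 7mer-A1. SLC35G2 overlaps 2 tested antisense genes, and on the opposite strand MPV17L2 overlaps RAB3A and PPP1R11 overlaps RNF39, so their reads may be shared. RNF39 had a mean of 0.58 CPM. RTL8C ranked 27 in this order, at 2.32, and RTL8A ranked 51, at 2.72. These distances are a description, since RTL8B was chosen for its pattern.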

How the data were processed

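Polyadenylated RNA of 14 HEK293T libraries was made into sequencing libraries with a kit that does not mark strand (TruSeq RNA v2), per the labels' protocols. The authors deposited whole-number read counts per gene, not normalised. The authors used edgeR 3.42.4, STAR 2.7.11a and, from Subread 2.0.3, featureCounts, with GRCh38, per the submitters' processing notes. The annotation release, strand setting and handling of multi-mapping reads are not given in the sources used here. Libraries were grouped by treatment and held 22.24 to 36.26 M reads. The labels do not say that replicates are separate cultures, so a p-value may cover technical spread only. All 26 pairs of replicates differed beyond counting noise (chi-square divided by its degrees of freedom 2.72 to 14.3).

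All genes were fitted together with edgeR 4.0.16 in R 4.3.3: TMM factors, filterByExpr, a robust quasi-likelihood test over 14 libraries with 3 group means, and Benjamini-Hochberg adjustment over 18321 genes at a threshold of 0.05. The common biological coefficient of variation was 0.0615. The test was checked on simulated data. Of 50 genes changed 1.25-fold it recovered 62% for miR-34a-WT against control, 44% for miR-34a-RS against control and 48% between the duplexes. For 4-fold changes the shares were 96%, 94% and 90%. Differences of 1.25-fold or less that did not pass may therefore have been missed. The simulation changed far fewer genes than were called against control, drawn at random from all expression levels. The shares recovered are thus not those for the 6 genes. Symbols were found for 42291 of 63140 IDs. Sequences come from GENCODE 29 transcripts and the RefSeq miRNA table. The protein-coding transcript with the longest 3′ UTR stood for each gene, and for PEG10 the one that codes both frames. Members and lists were chosen with earlier results of these data known. Genes named are the 6 genes, the tested other RTL genes, up to 4 genes per other list by smallest adjusted p, the nearest tested neighbours and the 5 genes nearest to RTL8B in pattern (mean of at least 5 CPM, log2 CPM with a prior count of 2). Alternatives were DESeq2 1.42.0, other normalisation and filters, 2 groups only, a replicate block and leaving out each library. Same-numbered miR-34a-WT and miR-34a-RS libraries deviated together over 11259 genes, with correlations from 0.373 to 0.716 over 4 pairs. Their mean was 0.555, and -0.134 for unlike numbers, so the numbers were taken to pair these 2 groups. Differences between the duplexes nevertheless come from the fit without pairing wherever the replicate block is not named. Same-numbered control libraries correlated less and less evenly. With miR-34a-WT the range was -0.156 to 0.557 (mean 0.291, and -0.0712 for unlike numbers). With miR-34a-RS it was -0.00151 to 0.478 (mean 0.273, and -0.0701 for unlike numbers). Whether the numbers also pair the controls was therefore not settled.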

Additional observations from a re-analysis of the deposited data

Results flagged for a closer look

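In 5 of 27 groups of 4 or 5 libraries checked, 1 library stood apart from the others by Dixon's test at the 95% level, which chance gives in about 1 of 20 groups. In miR-34a-WT replicate 1 the level of RTL8C was lowest at 31.75 CPM and that of RTL5 lowest at 9.717 CPM. The summed level of RTL8A, RTL8B and RTL8C was also lowest there, at 73.52 CPM, and the share of RTL8B in that sum was highest, at 12.01%. These 3 RTL8 values come from overlapping counts and are not separate signs. In miR-34a-RS replicate 5 the level of RTL6 was highest at 77.36 CPM.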

How the results depend on the processing

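The members called numbered 4 or 5 of 5 against control with either duplex and 1 of 5 between the duplexes under every alternative run. The difference of RTL8A between the duplexes ranged from 0.27 to 0.34 on the log2 scale over the alternatives that count RTL8A alone, with adjusted p from 4.66e-05 to 0.0363. Genes called between the duplexes numbered 286, against 488 with DESeq2, 1254 with the replicate block and 142 to 730 when 1 library was left out. The cause was not tested. The replicate block gave 0.31 for RTL8A (adjusted p = 6.45e-05) and 0.10 for RTL8C (adjusted p = 0.337) and changed no other call of a member between the duplexes. Against control the block gave 8817 called genes for miR-34a-WT and 7715 for miR-34a-RS, in place of 7373 and 6346. With the block PEG10 passed at -0.46 (adjusted p = 0.0389) with miR-34a-WT and -0.58 (adjusted p = 0.0181) with miR-34a-RS. Whether the numbers pair the control libraries was not settled. With only the 2 groups compared, PEG10 was at -0.50 with miR-34a-RS (adjusted p = 0.0237). It has no value under the filter of at least 5 CPM. The RTL5 difference between the duplexes, 0.01, changed sign to -0.0010 with the block and ranged from -0.024 to 0.051 when 1 library was left out, including -0.0024 without miR-34a-RS replicate 3. That of PEG10 ranged from -0.21 to 0.15, and neither passed in any of these. With the 3 paralogs summed, the RTL8B values became -1.49, -1.24 and 0.25. The log2 ratio of RTL8A to RTL8C, tried only without each library, ranged from 0.049 to 0.11 for miR-34a-WT against control, from 0.26 to 0.33 for miR-34a-RS against control and from 0.19 to 0.23 between the duplexes. Depth limits PEG10, at 18 to 47 reads per library. Unmarked strand may limit PEG10 and RTL5, whose gene spans overlap genes on the opposite strand, but shared exon bases were not measured.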
